A study of Ovis aries with 8 samples.

Results

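The genes described here are 10 heat shock and chaperone genes: HSPA1A, HSPA8, HSP90AA1, HSP90AB1, HSPB1, DNAJB1, HSPH1, HSPA5, HSPD1 and HSPE1. They were taken by name from the annotation of the bovine array, and earlier results of these data were known when they were chosen. Of the 24016 probe sets tested, 23 carry one of these symbols and 13292 carry a single symbol of any of 9155 genes. All 10 genes were measured, 4 of them by 1 probe set and HSPA1A by 6, and the probe set with the highest mean intensity stands for each gene.

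Fat from around the kidney (perirenal adipose tissue) was profiled from 8 male lambs of 12 weeks, 4 per genotype and 1 array per lamb. NmatCpat lambs inherited the Callipyge mutation from their sire and a normal chromosome from their dam, the genotype that develops enlarged hindquarter muscles and a lean body. NmatNpat lambs carried the normal allele on both chromosomes. All were Dorset/Suffolk/Rambouillet cross-bred lambs that had not been weaned and had free access to pellets of alfalfa hay and barley. The fat was frozen in liquid nitrogen soon after death, and each array holds the RNA of all cell types of that piece of 1 depot. The comparison asks whether the mutation is accompanied by changes in transcripts of a tissue other than muscle.

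Molecular chaperones bind unfolded or partly folded proteins and help them to reach or keep their shape. Heat, oxidation and other insults to proteins raise transcription of the inducible cytosolic members through heat shock factor 1, whereas unfolded protein in the endoplasmic reticulum or in mitochondria is sensed by separate pathways. Adipocytes use the endoplasmic reticulum set for secreted proteins such as adiponectin.

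Values below are log2 intensities after quantile normalization, so that 1 unit is a doubling, and differences are NmatCpat minus NmatNpat on that scale. Intensities of different probe sets are not comparable with each other, and each gene is therefore compared between lambs and not with other genes. The median deposited signal of the arrays lay between 65.3 and 72.6. Adiponectin (ADIPOQ), the fatty acid binding protein FABP4 and the fatty acid transporter CD36 were bright in all lambs. Leptin (LEP) was dim. A pair of arrays had stood apart in earlier results, NmatNpat animal 1 by neuronal markers, whose mean deviation was 5.34 in that lamb, and NmatCpat animal 4 by skeletal muscle markers, at 1.496. The fit was therefore repeated without both.

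The 10 genes had a higher mean in NmatCpat than in NmatNpat lambs in 10 of 10 cases, with differences from 0.0023 to 0.69 and a median of 0.21. Over all probe sets tested the median difference was 0.0055 and 50.7% had the higher mean in NmatCpat. 1 gene, the Hsp40 co-chaperone DNAJB1, passed both thresholds in the limma fit, a P not above 0.05 and a change of more than 1.5-fold, beside 3.93% of all probe sets in either direction, 2.04% with higher and 1.88% with lower intensity in NmatCpat. No gene of the 10, and no probe set of the array, had a Benjamini-Hochberg adjusted p under 0.05 in limma, although 4.66% of probe sets met the P threshold alone. The common direction of the 10 genes is not 10 separate observations, because several of them were highest in the same lambs, NmatCpat animals 3 and 4. Without those lambs, a choice made after the values were seen, 5 of 10 genes were higher in NmatCpat.

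**Figure D1:**
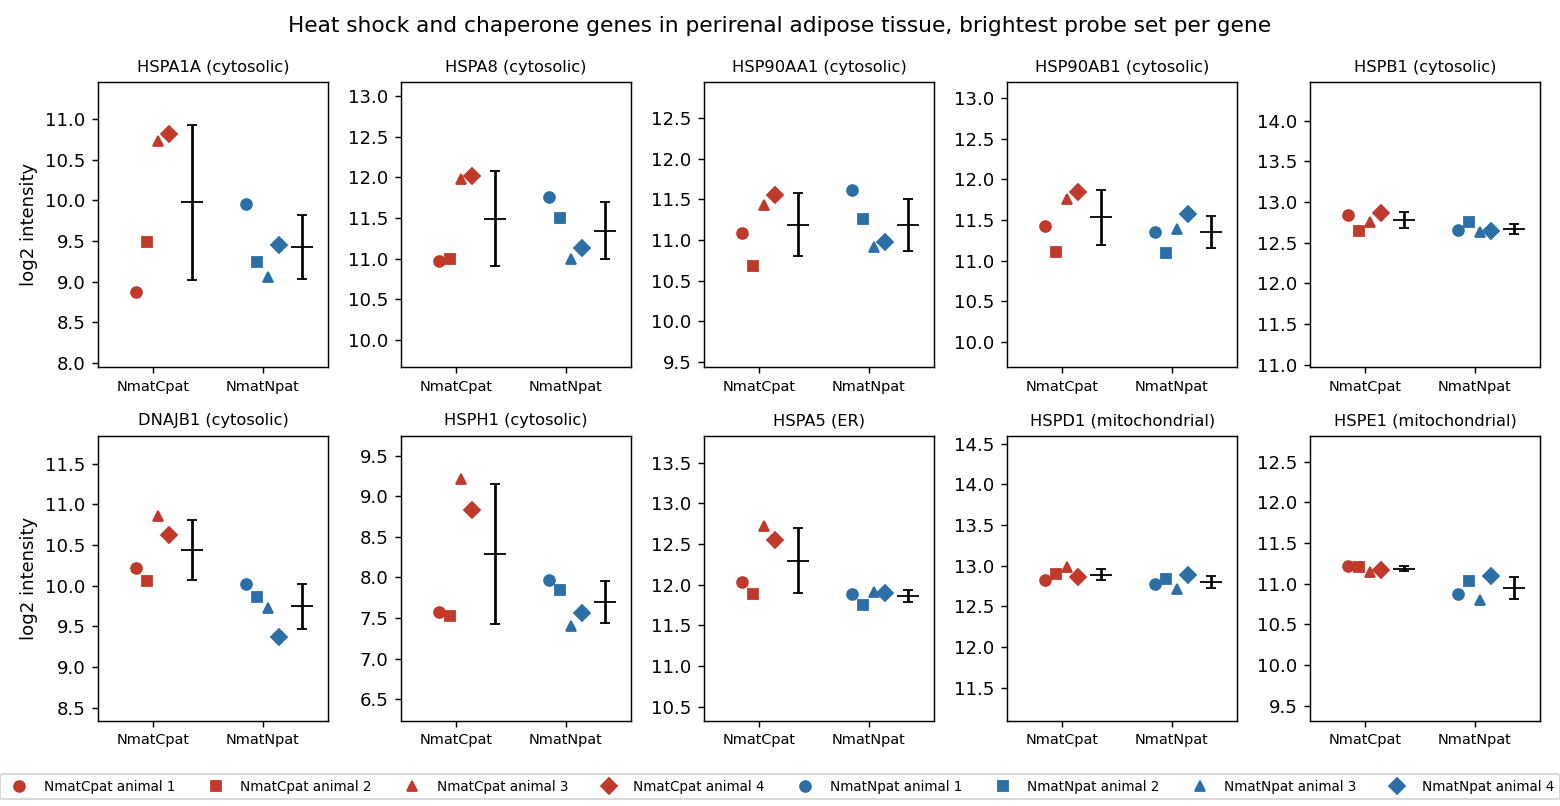
Log2 intensity (vertical axes) of the 10 chaperone genes in each NmatCpat and NmatNpat lamb, 4 per genotype, with a symbol for each animal number and, beside the points, the mean and SD of each genotype (ER, endoplasmic reticulum). Most of the cytosolic genes and HSPA5 are high in NmatCpat animals 3 and 4, and the genotypes do not overlap for DNAJB1 and HSPE1.

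DNAJB1 delivers client proteins to cytosolic Hsp70 and stimulates its ATPase. Its log2 intensities were 10.21, 10.06, 10.85 and 10.62 in NmatCpat animals 1 to 4 and 10.03, 9.86, 9.73 and 9.37 in NmatNpat animals 1 to 4. All NmatCpat lambs thus lay above all NmatNpat lambs, as did those of 1.41% of all probe sets. The gap between the lowest NmatCpat and the highest NmatNpat lamb was small beside the range of either genotype. The difference was 0.69 ± 0.24 (SE, n = 4 per genotype), a 1.62-fold higher mean, with a 95% confidence interval from 0.14 to 1.249. It had P = 0.0208 and an adjusted p of 0.98 in limma, and the two-sided exact permutation test gave p = 0.0286, the smallest that 4 lambs against 4 allow. On the deposited linear scale, the signal ran from 1092.0 to 1829.0 in NmatCpat and from 665.5 to 1015.6 in NmatNpat lambs. A second DNAJB1 probe set read 8.89, 9.09, 10.44 and 9.99 in the NmatCpat lambs and 8.91, 9.11, 8.61 and 8.71 in the NmatNpat lambs. On it, NmatCpat animals 3 and 4 stood above all others while animals 1 and 2 lay among the NmatNpat lambs, and the difference of 0.77 had an interval from -0.06 to 1.601 and an adjusted p of 0.98 in limma. The call of DNAJB1 was lost when NmatCpat animal 3 (difference 0.56), NmatCpat animal 4 (0.63) or NmatNpat animal 4 (0.57) was left out. It was 0.39, also without a call, when both NmatCpat animals 3 and 4 were left out.

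HSPA1A encodes the inducible cytosolic Hsp70, which is scarce in unstressed cells and is among the transcripts that rise most after heat. Its brightest probe set read 8.87, 9.49, 10.73 and 10.81 in the NmatCpat lambs and 9.95, 9.24, 9.05 and 9.45 in the NmatNpat lambs. NmatCpat animals 3 and 4 were the highest of all lambs and NmatCpat animal 1 was the lowest, so that the range of the NmatCpat lambs contained that of the NmatNpat lambs. The deposited signal ran from 458.1 in NmatCpat animal 1 to 1833.0 in NmatCpat animal 4, and the normalized values of these lambs differed 3.83-fold. The genotype difference was 0.55 with an interval from -0.53 to 1.63 and an adjusted p of 0.98 in limma, and the exact permutation p was 0.31. This is within the spread between lambs.

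The 6 probe sets of HSPA1A are annotated to a pair of cattle gene identifiers that share the symbol, and Hsp70 genes are near-identical copies, so which copy was measured is uncertain. The brightest is also of a type that can bind several transcripts. The differences on the 6 probe sets ran from 0.20 to 0.81 and none passed the thresholds. The other probe set of the brightest one's transcript, at 6.70, 7.43, 8.71 and 8.75 in the NmatCpat lambs and 7.86, 7.27, 7.32 and 7.20 in the NmatNpat lambs, placed the same lambs highest. The brightest probe set of the second identifier did not, with 7.14, 7.65, 7.39 and 7.77 in the NmatCpat lambs and 7.39, 7.35, 7.30 and 5.62 in the NmatNpat lambs. A dimmer one of that identifier, with the difference of 0.81, did. It read 6.12 and 6.26 in NmatCpat animals 3 and 4, close above 6.02 in NmatCpat animal 1. The remaining ones did not.

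HSPH1 encodes Hsp110, a nucleotide exchange factor that releases ADP from Hsp70. It read 7.58, 7.53, 9.21 and 8.83 in the NmatCpat lambs and 7.96, 7.85, 7.40 and 7.56 in the NmatNpat lambs. As for HSPA1A, NmatCpat animals 3 and 4 stood well above the others, and NmatCpat animals 1 and 2 were below NmatNpat animals 1 and 2. The mean fold was 1.51, but the difference of 0.59 had an interval from -0.36 to 1.55 and did not pass the P threshold (exact permutation p = 0.31). The differences on its 3 dimmer probe sets were 0.50, 0.84 and -0.21, the last being the only one of the 23 probe sets with a lower mean in NmatCpat.

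HSPA8, the constitutive Hsp70 that also uncoats clathrin vesicles, read 10.97, 10.99, 11.98 and 12.01 in the NmatCpat lambs and 11.76, 11.49, 10.99 and 11.14 in the NmatNpat lambs. The lambs fell into a high set of NmatCpat animals 3 and 4 with NmatNpat animals 1 and 2, and a low set of the other lambs, with both genotypes in each. The difference of 0.14 (interval -0.61 to 0.90, exact permutation p = 0.66) was within the spread between lambs and changed sign without NmatCpat animal 3 or 4.

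The cytosolic Hsp90 pair, which matures kinases and steroid receptors, showed no genotype difference beyond the spread. The inducible HSP90AA1 read 11.09, 10.68, 11.43 and 11.56 in the NmatCpat lambs and 11.61, 11.26, 10.91 and 10.98 in the NmatNpat lambs. It was the gene with the smallest difference, 0.0023 with an interval from -0.59 to 0.60 (exact permutation p = 0.97), and its highest lamb was NmatNpat animal 1. In sheep assembly ARS-UI_Ramb_v3.0 it lies on chromosome 18, which also carries the Callipyge mutation and its neighbour DLK1, with 6 protein-coding genes named between DLK1 and HSP90AA1. The constitutive HSP90AB1 read 11.43, 11.11, 11.76 and 11.85 in the NmatCpat lambs and 11.35, 11.09, 11.40 and 11.57 in the NmatNpat lambs. Its genotypes overlapped, with NmatCpat animals 3 and 4 highest, and the difference was 0.19 (interval -0.32 to 0.69, exact permutation p = 0.37). HSP90AB1 was measured by 1 probe set, of a type that can bind several transcripts.

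HSPB1, a small heat shock protein that holds unfolded proteins without ATP and protects the actin cytoskeleton, was among the steadiest transcripts. Its values were 12.83, 12.64, 12.75 and 12.87 in the NmatCpat lambs and 12.65, 12.75, 12.63 and 12.64 in the NmatNpat lambs. The genotypes overlapped, and the difference of 0.11 had an interval from -0.22 to 0.43, which excludes a 1.5-fold change in either direction. The second probe set, at a mean level of 4.24, gave 0.81 with an interval from -0.78 to 2.39.

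HSPA5 (BiP) is the Hsp70 of the endoplasmic reticulum and holds the sensors of the unfolded protein response inactive. It read 12.04, 11.89, 12.72 and 12.55 in the NmatCpat lambs and 11.89, 11.76, 11.91 and 11.90 in the NmatNpat lambs. NmatCpat animals 3 and 4 were high, whereas NmatCpat animal 1 lay just above the NmatNpat lambs and animal 2 among them. The difference was 0.43 with an interval from -0.08 to 0.94, P = 0.085 and an adjusted p of 0.98 in limma (exact permutation p = 0.11). Its other probe sets gave 0.41 and 0.79, neither past the thresholds.

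HSPD1 and HSPE1 encode the mitochondrial Hsp60 chamber and its lid Hsp10, and in mammals the genes lie head to head with a shared promoter region. HSPD1 read 12.83, 12.90, 12.98 and 12.86 in the NmatCpat lambs and 12.77, 12.83, 12.71 and 12.89 in the NmatNpat lambs, with overlap and a difference of 0.09 (interval -0.23 to 0.41, exact permutation p = 0.14). HSPE1 read 11.21, 11.20, 11.15 and 11.17 in the NmatCpat lambs and 10.88, 11.03, 10.80 and 11.09 in the NmatNpat lambs. Its genotypes did not overlap, but by a narrow margin. The difference of 0.23, a 1.18-fold higher mean, passed neither threshold, with an interval from -0.10 to 0.57, P = 0.148 and an adjusted p of 0.98 in limma, and its exact permutation p was 0.0286. Non-overlapping genotypes were thus seen for 2 of the 10 genes, DNAJB1 and HSPE1, both with NmatCpat above, against 1.41% of all probe sets in that direction, 1.32% in the opposite one and 2.74% in either.

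**Figure D2:**
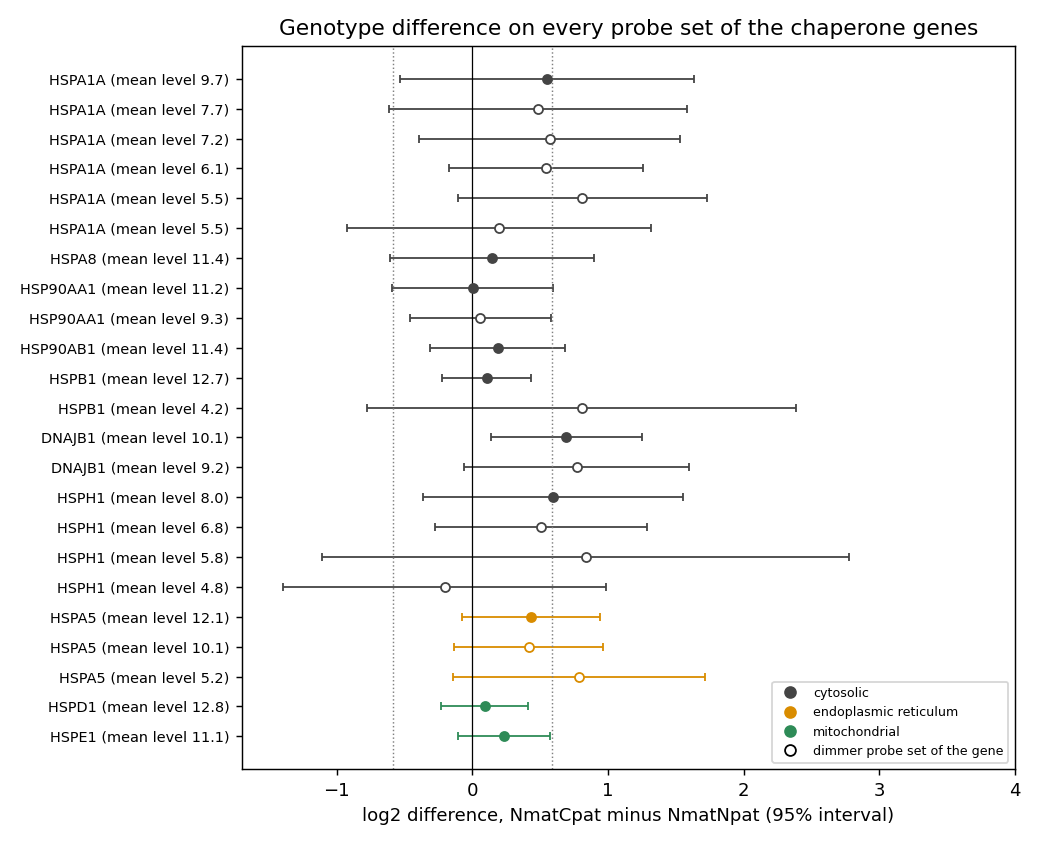
Difference between genotypes on each of the 23 probe sets of the chaperone genes (log2, NmatCpat minus NmatNpat, n = 4 per genotype) with its 95% confidence interval from limma. Filled points are the brightest probe set of each gene, open points the dimmer ones, and dotted lines mark a 1.5-fold change in either direction. Of the filled points all 10 lie above 0, and of the 23 intervals only that of the brightest DNAJB1 probe set lies wholly above 0.

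The intervals set what this fit can show, and they depend on how the variances are moderated. Those of 7 of the 10 genes exclude a 2-fold change in either direction and those of 3 exclude a 1.5-fold change. The median distance from the estimate to the end of the interval was 0.53.

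By compartment, the median difference was 0.19 for the 7 cytosolic genes, 0.43 for HSPA5 and 0.16 for the mitochondrial pair. For 1 gene per compartment, the genotype differences were set against each other within each lamb. HSPA1A exceeded HSPA5 by 0.12 (exact permutation p = 0.74, adjusted over 3 pairs 0.74), HSPA1A exceeded HSPD1 by 0.46 (p = 0.34, adjusted 0.51, exact permutation), and HSPA5 exceeded HSPD1 by 0.34 (p = 0.17, adjusted 0.51, exact permutation). No difference between these 3 genes was thus detectable with 4 lambs per genotype, and the other genes were not compared in this way.

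The genes differed in how much the lambs varied, also within the cytosolic group. The SD within genotypes was 0.73 for HSPA1A, larger than that of 98.2% of the 6004 brightest probe sets, to which all 10 genes belong. It was 0.64 for HSPH1 (96.9%) and 0.48 for HSPA8 (91.7%). HSP90AA1 at 0.36, DNAJB1 at 0.32, HSPA5 at 0.29 and HSP90AB1 at 0.28 were intermediate. HSPE1 at 0.099, HSPB1 at 0.081 and HSPD1 at 0.071 were among the least variable transcripts, with 5.41%, 3.05% and 2.13% of those brightest probe sets below them. By this SD over both genotypes, the cytosolic Hsp70s and their exchange factor varied most among the 10. The mitochondrial pair and the small heat shock protein varied least. Within the NmatNpat lambs alone the order differed. There the SD was 0.39 for HSPA1A and 0.35 for HSPA8, but HSPH1 at 0.26 lay below HSP90AA1 at 0.32 and DNAJB1 at 0.28. HSPA5 at 0.072 was there about as steady as HSPD1 at 0.077. These shares and SDs are a description, and no test was made of them.

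**Figure D3:**
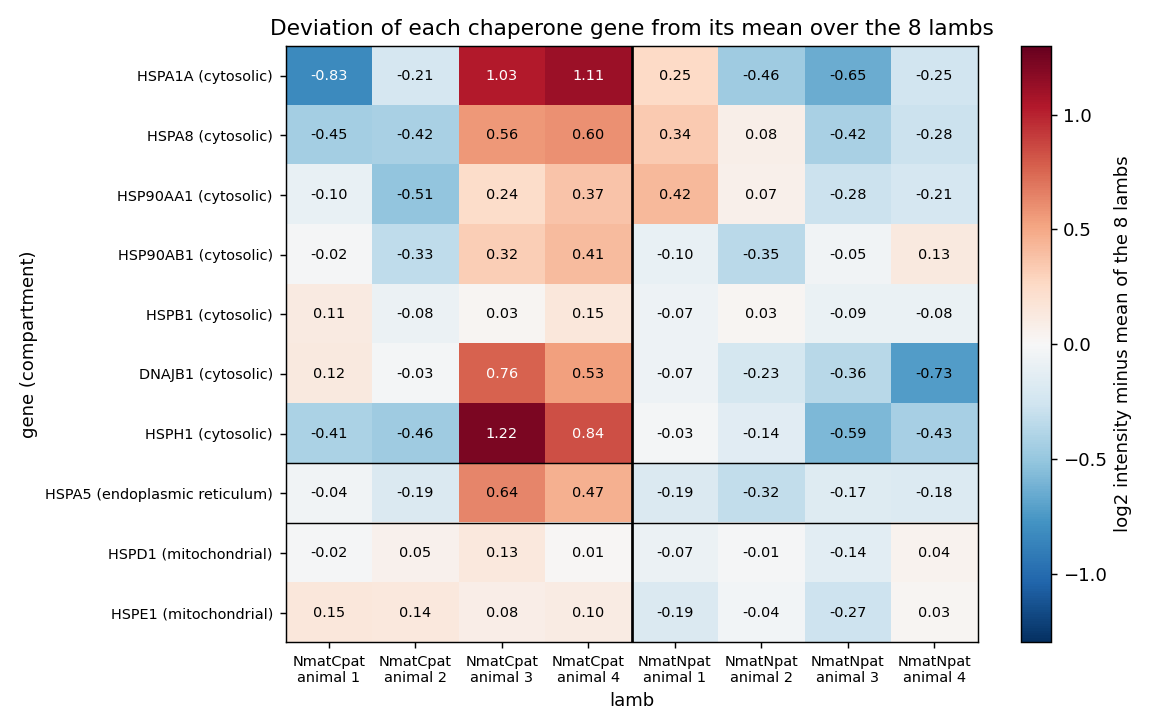
Log2 intensity of each chaperone gene in each lamb minus its mean over the 8 lambs, with genes grouped by compartment and NmatCpat lambs left of the vertical line. NmatCpat animals 3 and 4 carry the highest values of HSPA1A, HSPA8, HSP90AB1, DNAJB1, HSPH1 and HSPA5, and the rows of HSPD1, HSPE1 and HSPB1 are nearly flat.

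Much of the spread lay in 2 lambs. NmatCpat animals 3 and 4 were both above all 6 other lambs in 6 of 10 genes, namely HSPA1A, HSPA8, HSP90AB1, DNAJB1, HSPH1 and HSPA5. The same holds for 4.46% of all probe sets and 6.21% of those brightest probe sets. The lambs were picked after their values were seen, and the count is a description with no test. The mean deviation of the 7 cytosolic genes was 0.60 and 0.57 in these lambs, -0.22 and -0.29 in NmatCpat animals 1 and 2, and between -0.35 and 0.11 in the NmatNpat lambs. For the mitochondrial pair it lay between -0.20 and 0.11 in all lambs. When both lambs were left out, the median cytosolic difference became -0.14 and that of HSPA5 0.10.

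Several measures of the arrays were set beside these lambs. The ratio of 3′ to 5′ GAPDH control signal, which rises as RNA degrades, was 1.11 in both, within the range of 0.94 to 1.15 over all arrays. The actin ratio was 11.8 and 8.49, against 4.04 to 26.1 over all arrays. The mean deviation of the 8 measured adipocyte markers was lowest in NmatCpat animals 3 and 4, at -0.18 and -0.11. It was -0.10 to 0.10 in the other lambs. The adipocyte marker farthest from its mean in NmatCpat animal 3 was the dim LEP, at 3.84 against 4.92. LPL lay above its mean in that lamb, at 11.78 against 11.48. The 4 measured macrophage markers deviated by 0.52 and 0.53 in NmatCpat animals 3 and 4, by 0.67 in NmatNpat animal 3 and by -0.63 to 0.19 in the others. The skeletal muscle markers deviated by 1.496 in NmatCpat animal 4 and by 0.03 in NmatCpat animal 3. For no measured marker of the 9 cell types listed did both NmatCpat animals 3 and 4 lie above all 6 other lambs. That count does not cover markers that were low in both. Single markers of 1 cell type differed. The macrophage genes CD14 and CD68 were highest in NmatCpat animal 3 and AIF1 in NmatCpat animal 4, but CSF1R was highest in NmatNpat animal 3. The muscle genes ACTA1, MYL2, TNNC1, TNNT1 and MB were highest in NmatCpat animal 4. On their brightest probe sets, CKM was lowest there and MYH7 was highest in NmatNpat animal 4. A dimmer probe set of each, at 7.47 for CKM and 6.72 for MYH7, was highest in NmatCpat animal 4. Another dim MYH7 probe set was highest in NmatNpat animal 2. The part of cell composition or RNA quality in the chaperone values was not tested, and in bulk tissue fewer cells of a type and less RNA per cell cannot be told apart.

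Correlations over the 8 lambs were computed for all 45 pairs of the 10 genes. For HSPA1A, HSPH1 and HSPA5 with each other, the lambs fell into 2 clusters, NmatCpat animals 3 and 4 and the rest, and no r over all lambs is given. Within the 6 remaining lambs, Pearson's r was 0.61 for HSPA1A with HSPH1, -0.36 for HSPA1A with HSPA5 and -0.45 for HSPH1 with HSPA5 (exact permutation p = 0.22, 0.51 and 0.42). The relation of the endoplasmic reticulum gene with the inducible cytosolic genes therefore rested on NmatCpat animals 3 and 4.

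Of the 42 other pairs, 10 had an exact permutation p of at most 0.05 and 1 had an adjusted p under 0.05. That pair was HSPA8 with HSPH1, at r = 0.91 (exact permutation p = 0.00074, adjusted 0.031) and rho = 0.83 (p = 0.0167, adjusted 0.175). Without the 2 lambs farthest from the median of HSPA8, NmatCpat animals 3 and 4, r was 0.95 over 6 lambs (exact permutation p = 0.0167, adjusted 0.29). Among those 6 lambs, NmatNpat animals 1 and 2 were the highest for both genes. No pair had an adjusted p under 0.05 without NmatNpat animal 1.

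HSP90AA1 and HSPH1 had r = 0.72 (exact permutation p = 0.0427, adjusted 0.18) and rho = 0.88 (p = 0.0072, adjusted 0.11), and r = 0.91 without NmatCpat animal 2 and NmatNpat animal 1. HSPA1A and DNAJB1, the Hsp70 and its J-domain partner, had r = 0.73 (exact permutation adjusted p = 0.18) but -0.09 without the 2 farthest lambs, and the relation rested on NmatCpat animals 3 and 4. HSP90AA1 and HSP90AB1 reached only r = 0.50 (rho = 0.31, exact permutation p = 0.21 and 0.46). HSPD1 and HSPE1, partners in 1 complex, had r = 0.78 (exact permutation p = 0.0212, adjusted 0.13) and rho = 0.52 (p = 0.20), with r = 0.72 without the 2 farthest lambs. With genotype means removed, r of this pair was 0.64 (exact permutation p = 0.088, adjusted 0.21). HSPA5 and HSPD1 had r = 0.58 (exact permutation p = 0.15, adjusted 0.31, rho = 0.25), which fell to -0.06 without NmatCpat animals 3 and 4.

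Wider lists place the 10 genes among their partners. Of 50 listed cytosolic co-chaperones, heat shock factors and other heat shock proteins such as HSPB8, CRYAB and HSPA4, 39 were measured. Their median difference was 0.08, with 25 higher and 14 lower in NmatCpat. 1 of the 39 passed both thresholds, a share no larger than the 3.93% of all probe sets, namely PPID, a cyclophilin that works with Hsp90. It read 10.07, 10.10, 9.23 and 9.62 in the NmatCpat lambs and 9.29, 8.40, 8.65 and 9.46 in the NmatNpat lambs, so the genotypes overlapped and NmatCpat animals 1 and 2 were highest. The difference was 0.81 (interval 0.08 to 1.53, P = 0.0337 and adjusted p = 0.98 in limma, exact permutation p = 0.086), and a second PPID probe set gave -0.10. The call was lost without NmatCpat animal 1 (0.71), NmatCpat animal 2 (0.69), NmatCpat animal 4 (0.85), NmatNpat animal 2 (0.62) or NmatNpat animal 3 (0.71). The PPID lambs are thus ordered unlike those of HSPA1A.

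In 9 of the 39 genes NmatCpat animals 3 and 4 were both above the 6 other lambs, as in 4.46% of all probe sets, and the following were named after their values were seen. BAG3, which links Hsp70 to selective autophagy and is a target of heat shock factor 1, read 9.29, 8.96, 9.50 and 9.65 in the NmatCpat lambs and 9.16, 8.96, 8.56 and 8.45 in the NmatNpat lambs. STIP1 (Hop), which passes clients from Hsp70 to Hsp90, read 9.28, 9.35, 9.92 and 9.97 in the NmatCpat lambs and 9.31, 9.55, 9.25 and 9.03 in the NmatNpat lambs. DNAJA1, another Hsp40, read 9.98, 9.83, 10.76 and 10.72 in the NmatCpat lambs and 10.56, 9.97, 9.96 and 10.14 in the NmatNpat lambs. These 3 were taken from those 9 genes, so their pair of high NmatCpat lambs follows from the choice and is no further result. None of the 3 passed both thresholds. HSF1, heat shock factor 1 itself, had a difference of -0.14 with overlapping genotypes and did not pass.

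The 17 measured genes of 19 for the cytosolic chaperonin TRiC/CCT, prefoldin and the tubulin cofactors had a median difference of -0.01, with 7 higher, 10 lower and none past the thresholds. The smallest P was that of TBCE, a tubulin folding cofactor, at -0.44 (P = 0.229 in limma, exact permutation p = 0.17). NmatCpat animals 3 and 4 were both above the 6 other lambs in 2 of the 17, beside 4.46% of all probe sets. These were CCT6A and CCT8, subunits of the chaperonin.

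Of 49 listed genes for folding and the unfolded protein response in the endoplasmic reticulum, 36 were measured, with a median of 0.12, 27 higher and 9 lower, and none past the thresholds by its brightest probe set. NmatCpat animals 3 and 4 were both above the 6 other lambs in 7 of them, beside the same 4.46% of all probe sets. Among these is MANF, a secreted protein induced by stress of the endoplasmic reticulum, at 10.33, 9.91, 10.91 and 11.22 in the NmatCpat lambs and 10.10, 10.17, 9.99 and 10.27 in the NmatNpat lambs. Its high NmatCpat animals 3 and 4 follow from its being taken from these 7 genes. NmatCpat animal 1 lay just above and animal 2 just below the NmatNpat range of MANF. The smallest P of the list belonged to DDIT3 (CHOP), the transcription factor linked to cell death under such stress, whose difference was -0.32 (P = 0.088 in limma, exact permutation p = 0.057). The transcript of ATF4, which acts upstream of DDIT3, differed by -0.17. A dim probe set of DNAJC10, a reductase of the same compartment, passed both thresholds at 1.22, while its brightest one gave -0.01.

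Of 24 mitochondrial chaperones and proteases, 15 were measured, with a median of 0.06, 9 higher, 6 lower and none past both thresholds by its brightest probe set. The smallest P was that of YME1L1, a protease of the inner membrane, at 11.02, 10.78, 10.74 and 10.65 in the NmatCpat lambs and 10.51, 10.31, 10.17 and 10.58 in the NmatNpat lambs. Its genotypes did not overlap, and the difference of 0.41 had P = 0.0446 and an adjusted p of 0.98 in limma (exact permutation p = 0.0286). HSPA9, the mitochondrial Hsp70, gave -0.11 on its brightest probe set. A dim one at 4.01, 4.31, 2.79 and 2.83 in the NmatCpat lambs and 2.54, 2.79, 2.53 and 2.07 in the NmatNpat lambs passed both thresholds, and the probe sets of that gene thus disagree. A dim probe set of AFG3L2, a protease subunit, passed at -0.66 and its brightest one gave -0.13. The calls of these dim probe sets were lost with some lambs left out, among them NmatNpat animal 1 for DNAJC10 (0.97), HSPA9 (1.02) and AFG3L2 (-0.56).

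**Figure D4:**
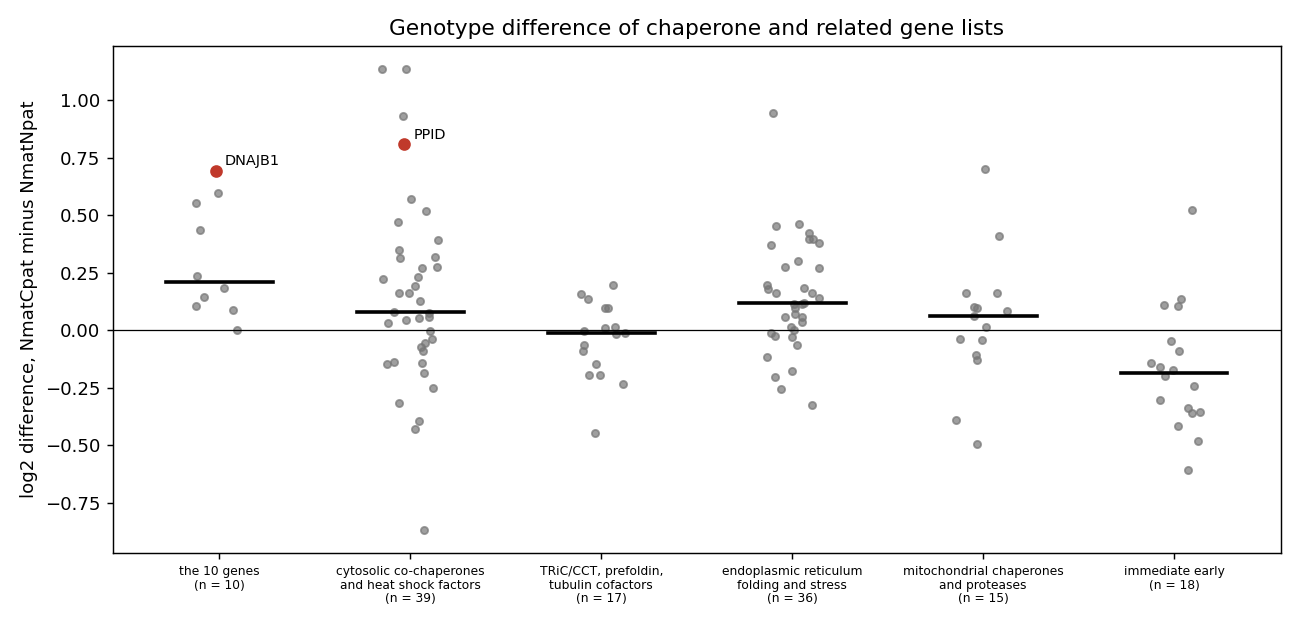
Difference between genotypes (log2, NmatCpat minus NmatNpat) of every measured gene of the 10 chaperone genes and of 5 wider lists, by the brightest probe set, with bars for the medians and the number of genes n under each list. DNAJB1 and PPID, in red, are the genes past both thresholds, and the medians lie between -0.19 for immediate early genes and 0.21 for the 10 genes.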

How the data were processed

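RNA of 8 perirenal fat samples was hybridised to the Affymetrix Bovine Genome array, 1 array per lamb. The authors processed the images with MAS5 (no version is given), and the deposited intensity values are linear. The paper names background correction and quantile normalization, but the deposited columns do not share quantiles. Here log2 values of the intensities were quantile-normalized over all 24128 probe sets, and 112 controls were dropped. A linear model of genotype without covariates (NmatCpat minus NmatNpat) was fitted to the other 24016 by lmFit and eBayes of limma 3.58.1 in R 4.3.3, with Benjamini-Hochberg adjustment over all of them. Thresholds were a P not above 0.05 together with a change of more than 1.5-fold, and an adjusted p under 0.05. The methods name no statistic.

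Exact permutation tests were two-sided, over 70 arrangements of the lambs for a difference and over all pairings for a correlation. Clusters of lambs were set by the largest gap between neighbouring values. The precision is limited by 8 arrays, and intervals are at the 95% level. Symbols came from the array's annotation, which is old: 13292 probe sets have 1 symbol, 86 several and 10638 none. The sheep assembly served for names and neighbours only.

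The genes and the lists were chosen with earlier results of these data known. Named were the 10 genes, other probe sets of theirs past the thresholds, in each wider list the gene with the smallest P and those past the thresholds, 7 pairs and any pair with an adjusted p under 0.05, and the 5 genes most like HSPA1A, HSPA5 and HSPD1. Other names were chosen after their values were seen. The fits were tested on simulated data. Alternatives were the moderation and prior of the variances, array weights, 2 other scalings, an offset of 16, filters on dim and on unspecific probe sets, the animal number as a block, the mean of a gene's probe sets, other thresholds and leaving out lambs. The fit without NmatCpat animals 3 and 4 was added after seeing the data.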

Additional observations from a re-analysis of the deposited data

Results flagged for a closer look

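In 66 sets of 4 lambs of 1 genotype (33 probe sets), 4 had a lamb whose gap to its nearest neighbour took up more of their range than the critical value of Dixon's ratio allows, and chance sets about 1 in 20 apart. HSPA1A, on a dimmer probe set, was at 5.625 in NmatNpat animal 4 against 7.301 to 7.391 in the other NmatNpat lambs. HSPB1 was at 12.75 in NmatNpat animal 2 against 12.63 to 12.65. HSPA5 was at 11.76 in NmatNpat animal 2 against 11.89 to 11.91. FOS, on its second probe set, was at 9.525 in NmatCpat animal 1 against 9.138 to 9.20 in the other NmatCpat lambs.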

How the results depend on the processing

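DNAJB1 passed both thresholds in 15 of 20 alternatives, with differences from 0.39 to 0.82, and its smallest adjusted p in limma was 0.91. The number of the 10 genes past both thresholds was 1, and 0 to 1 with 1 lamb left out (0 without NmatCpat animal 3, NmatCpat animal 4 or NmatNpat animal 4). It was 0 without NmatCpat animals 3 and 4, and 2 by fold alone. Over the array the count was 943, with 979 to 1052 when 1 lamb was left out, 626 without moderated variances, 244 among probe sets above the median level, and 4803 by fold alone. The number with an adjusted p under 0.05 in limma was 0 in the main fit. It was 1 with trended robust variances, an offset of 16, probe sets above the median level or gene means, and 2 without NmatNpat animal 2. None of these was among the 10 genes. The number 1 of called correlations became 7 with genotype means removed, 5 with median-centred arrays, and 0 without NmatNpat animal 1 or without NmatCpat animals 3 and 4.

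With 1 lamb left out, the median difference ranged from 0.08 to 0.33 for the cytosolic genes, 0.29 to 0.57 for HSPA5 and 0.12 to 0.20 for the mitochondrial pair. Without NmatCpat animals 3 and 4 these became -0.14 and 0.097 for the cytosolic genes and HSPA5, and differences of opposite sign arose for HSPA1A (-0.25, 2 of its other probe sets -0.34 and -0.43), HSPA8 (-0.36), HSP90AA1 (-0.30 and -0.21), HSP90AB1 (-0.083), HSPH1 (-0.14 and -0.0054) and the dim HSPB1 probe set (-0.22). HSPB1, DNAJB1, HSPA5, HSPD1 and HSPE1 kept their direction in all alternatives run.

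With 1 lamb left out, HSPA8 ranged from -0.030 to 0.32, HSP90AA1 from -0.12 to 0.17, its second probe set from -0.045 to 0.24, the dimmest HSPA1A probe set from -0.087 to 0.44 and the dimmest HSPH1 probe set from -0.64 to 0.063. Without NmatNpat animal 1 and NmatCpat animal 4, that HSPA1A probe set was at -0.31 and the second HSP90AA1 probe set at -0.029.

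The animal number as a replicate block, where the deviations of same-numbered lambs correlated by -0.013 to 0.048 and 3 of 4 animal numbers matched best with their own, gave 0 of the 10 genes past both thresholds, with DNAJB1 at 0.69, and 1124 probe sets over the array. The labels do not say whether the numbers pair the lambs. With unspecific probe sets left out HSP90AB1 has no value and a dimmer probe set stands for HSPA1A. The cause of these changes was not tested. Dim probe sets near background limit what can be said of them, and 8 arrays limit the rest.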

Other observations

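Of 26 immediate early genes, most of them transcription factors that many stimuli switch on within minutes, 18 were measured. Their median difference was -0.19, with 4 higher and 14 lower in NmatCpat, and none passed both thresholds by its brightest probe set. The genotypes did not overlap for 3 of them, all lower in NmatCpat, beside 1.32% of all probe sets in that direction. FOS read 12.00, 11.90, 11.96 and 11.93 in the NmatCpat lambs and 12.05, 12.17, 12.59 and 12.65 in the NmatNpat lambs, a difference of -0.42 (P = 0.058 and adjusted p = 0.98 in limma, exact permutation p = 0.0286), and its second probe set passed both thresholds at -0.78. JUN, the partner of FOS in the AP-1 factor, differed by -0.24 and the nuclear receptor NR4A2 by -0.61, on their brightest probe sets. On the dimmer probe sets, JUN differed by -0.56 to -0.11 and NR4A2 by -0.87, -0.05 and 0.26. The genotypes overlapped on all of these and on the second FOS probe set. The smallest P of the brightest probe sets was that of JUNB, at -0.48 (P = 0.055 in limma, exact permutation p = 0.057). A dim probe set of IER2 passed at 2.46, against -0.16 on its brightest one. In 3 of the 18, ATF3, KLF4 and CCN1, NmatCpat animals 3 and 4 both lay above the 6 other lambs. The same held for 4.46% of all probe sets. ATF3 read 6.09, 6.17, 7.66 and 8.12 in the NmatCpat lambs and 7.26, 7.37, 6.67 and 7.30 in the NmatNpat lambs.

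The genes whose values over the 8 arrays were most like those of 1 chaperone per compartment were sought among the named probe sets above the median level. For HSPA1A, out of 7933, they were PTRH2 (r = 0.95), a probe set of AFG3L2 (0.95), LMNA (0.95), AKAP10 (0.94) and CPEB4 (0.94). For HSPA5 they were HNRNPLL (0.94), LIMA1 (0.93), SLC30A5 (0.93), DGKD (0.92) and ZFYVE26 (0.92). For HSPD1 they were MED14 (0.94), ARCN1 (0.93), GLG1 (0.92), DDX55 (0.92) and RLF (0.91). An r above 0.9 was reached by 0.175%, 0.133% and 0.075% of the bright probe sets, and with 8 arrays and a pair of high lambs in the first 2 genes these are descriptions only.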
